A study of Mus musculus with 8 samples.

Results

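The 40 genes described here encode the enzymes and regulators that build fatty acids and join them into glycerolipids and phospholipids. They form a list of named genes, grouped here by function, and all 40 were found among the 24344 gene symbols of the deposited table. The RNA came from occipital cortex of C57BL/6J mice at postnatal day 35, and GEO's labels describe the tissue as a cortex homogenate. 4 libraries came from mice fasted for 48 h and 4 from mice fed ad libitum. No transgene, mutation or drug is named for either group, sex is not given, and the labels do not say how many animals a library holds. Expression was given as FPKM (fragments scaled to transcript length and to the size of the library).

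Fatty acid synthesis starts in the cytosol, where acetyl-CoA made from citrate or acetate is turned into malonyl-CoA and then into palmitate, with NADPH as the reductant. Elongases of the ELOVL family lengthen the chain in the endoplasmic reticulum, and the SCD and FADS desaturases place its double bonds. Acyl-CoA synthetases activate the chains, acyltransferases attach them to glycerol phosphate, lipins remove the phosphate, and DGAT enzymes complete triacylglycerol, while the choline, serine and CDP-diacylglycerol branches make the membrane phospholipids. In brain these routes supply myelin and synaptic membranes with monounsaturated and long polyunsaturated chains. In liver the early steps are known to be lowered by fasting.

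In fasted cortex 3 of 4 supply enzymes, 2 of 6 elongases and 4 of 6 desaturases were lower, while 5 of 7 glycerolipid enzymes were higher. Slc25a1 and Fads1 among these lower genes lost their call in some fits without 1 library. Of the 5 higher genes, only Dgat2 and Lpin1 kept theirs in every such fit. Among 6 further glycerolipid enzymes tested, 3 fell and 1 rose. The largest fall among the tested genes of the list was that of the elongase Elovl5, to 14.7 ± 0.868 FPKM in fasted cortex against 20.0 ± 1.08 FPKM in ad libitum cortex (SD, n = 4 each). The largest increase among the tested genes of the list was that of Dgat2, with 22.4 ± 1.82 FPKM in fasted cortex and 15.8 ± 1.45 FPKM in ad libitum cortex (SD, n = 4 each). Fasn and Acaca, which make the chain itself, did not pass the test. Of the 40 genes, 38 reached 1 FPKM in at least 4 libraries and were tested. Of these 38, 12 fell and 9 rose at a Benjamini-Hochberg adjusted p under 0.05 in limma fitted to log2(FPKM + 1) of all 12377 tested genes. That is 31.6% lower and 23.7% higher, against 16.3% lower and 9.56% higher over all tested genes. Scaling moved this split: 11 fell and 10 rose after median-ratio scaling, and 1 fell and 8 rose after scaling to an equal FPKM sum, a sum that includes 4 microRNA rows above 5000 FPKM in single libraries. In either direction 55.3% of the 38 passed, against 25.8% of all tested genes. The 40 genes were chosen with earlier results of these data known, so these shares describe the list and do not test it. The median log2 change of the 38 genes was -0.087, against -0.024 over all tested genes; 14 of the 38 changes were positive and 24 negative, and the median was 0.015 after scaling to an equal FPKM sum. No tested gene of the list changed its mean FPKM by more than the 41.4% of Dgat2. Acacb, under 1 FPKM in every library and not tested, had a mean 82.2% higher in fasted cortex.

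The labelled tissue was checked against its markers. The summed level of 7 excitatory neuron markers was 507 to 579 FPKM in fasted and 499 to 592 FPKM in ad libitum libraries, and that of 5 adipocyte markers was 0 to 0.068 FPKM in fasted and 0.028 to 0.062 FPKM in ad libitum libraries. One library stood apart. Ad libitum replicate 3 held both Xist at 32.2 FPKM and the Y-linked Ddx3y at 5.67 FPKM, while each of the other 7 libraries had either Xist or Y-linked transcripts above 0.1 FPKM, not both. Without that library 10 of the 38 genes were lower and 5 higher. FPKM totals ran between 255459 and 281890 in fasted and between 253470 and 360010 in ad libitum libraries. The files give no read counts, so the depth is not known directly. The spacing of low FPKM values, an uncertain guide, gave about 17000000 to 21400000 fragments a library.

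Levels differed widely between the genes, compared per length as FPKM. Scd2, the main stearoyl-CoA desaturase of brain, stood alone at a mean of 174 FPKM over the 8 libraries. Cds2, Fads2, Acsl3, Acsl6 and Fads1 followed at 56.4, 54.6, 49.1, 47.3 and 45.0 FPKM, and each overlapped the next in this order in its library values. Fasn averaged 19.0 FPKM. Elovl7 was the lowest tested gene of the list at 2.69 FPKM, and only Mlxipl and Acacb, at 0.559 and 0.458 FPKM, were under the filter of 1 FPKM.

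**Figure D1:**
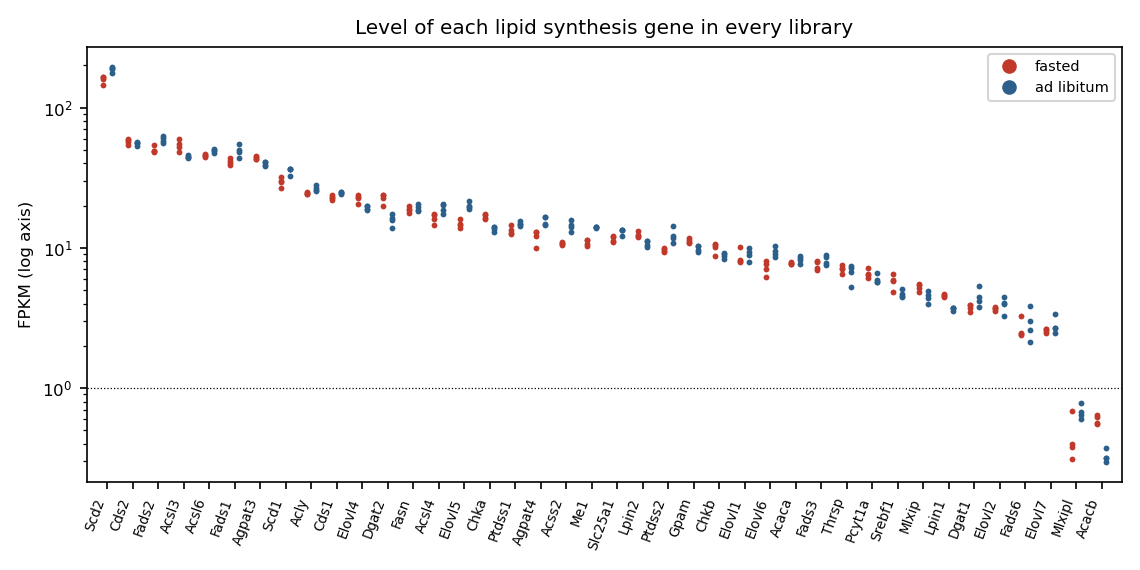
FPKM (vertical log axis) of the 40 genes, ordered by their mean over the 8 libraries, with 4 fasted libraries in red left of 4 ad libitum libraries in blue. Scd2 is highest at 146 to 166 FPKM in fasted and 178 to 196 FPKM in ad libitum libraries, and Mlxipl and Acacb lie under the dotted line at 1 FPKM.

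Promoter windows were read for a subset of genes, to set genes that fell, rose or did not pass side by side. RefSeq (GRCm38.p6, the build called mm10) held a window of 250 bases before to 50 bases after the start for 34 of the 40 genes. It held none for Scd1, Scd2 and Fads1, which fell, for Dgat2, which rose, or for Dgat1 and Ptdss1. The 5 windows below belong to Elovl5 (chr9:77917115-77917414, plus strand) and Acss2 (chr2:155517793-155518092, plus strand), which fell, to Elovl4 (chr9:83806256-83806555, minus strand) and Chka (chr19:3851523-3851822, plus strand), which rose, and to Fasn (chr11:120824498-120824797, minus strand), which did not pass. Capitals mark CCAAT boxes and the E-box CACGTG, on either strand.
Elovl5: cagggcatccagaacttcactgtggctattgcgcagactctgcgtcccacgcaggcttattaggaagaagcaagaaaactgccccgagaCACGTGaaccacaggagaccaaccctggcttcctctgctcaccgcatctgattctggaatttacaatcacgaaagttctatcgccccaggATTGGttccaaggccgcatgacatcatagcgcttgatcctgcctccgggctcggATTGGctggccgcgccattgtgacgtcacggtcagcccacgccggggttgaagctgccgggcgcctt
Acss2: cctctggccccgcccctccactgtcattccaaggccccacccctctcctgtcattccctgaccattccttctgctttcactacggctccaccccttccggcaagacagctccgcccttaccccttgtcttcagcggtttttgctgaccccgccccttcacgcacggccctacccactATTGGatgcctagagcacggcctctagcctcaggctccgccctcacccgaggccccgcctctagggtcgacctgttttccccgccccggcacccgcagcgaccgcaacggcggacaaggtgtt
Elovl4: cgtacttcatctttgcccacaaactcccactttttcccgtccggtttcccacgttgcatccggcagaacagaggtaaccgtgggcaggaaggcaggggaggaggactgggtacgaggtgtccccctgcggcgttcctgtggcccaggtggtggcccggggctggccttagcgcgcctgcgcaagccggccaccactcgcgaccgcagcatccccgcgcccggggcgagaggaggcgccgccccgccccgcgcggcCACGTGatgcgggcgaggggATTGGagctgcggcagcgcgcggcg
Chka: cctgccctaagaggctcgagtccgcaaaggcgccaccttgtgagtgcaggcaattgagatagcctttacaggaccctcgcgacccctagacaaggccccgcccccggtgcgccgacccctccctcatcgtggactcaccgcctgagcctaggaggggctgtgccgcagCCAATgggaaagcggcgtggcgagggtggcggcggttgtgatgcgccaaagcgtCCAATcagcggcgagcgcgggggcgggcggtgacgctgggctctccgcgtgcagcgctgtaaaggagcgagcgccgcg
Fasn: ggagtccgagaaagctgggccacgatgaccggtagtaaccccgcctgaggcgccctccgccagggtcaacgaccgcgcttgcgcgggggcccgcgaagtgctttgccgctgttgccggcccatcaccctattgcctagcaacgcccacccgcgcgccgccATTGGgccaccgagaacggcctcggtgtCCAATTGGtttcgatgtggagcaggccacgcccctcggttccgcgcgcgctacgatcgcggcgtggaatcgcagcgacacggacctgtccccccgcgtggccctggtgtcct
The windows of both Elovl5 and Elovl4, which moved in opposite directions, held a CACGTG and a CCAAT box. The box, searched as CCAAT or ATTGG, was present in 22 of 34 genes (64.7%), in 5 of 9 that fell (55.6%), in 6 of 8 that rose (75.0%) and in 9 of 15 that did not pass (60.0%), against 42.9% of 9420 tested genes with a window. The untested Acacb and Mlxipl, counted in the 34 but not among the genes that fell, rose or did not pass, each held a box. CACGTG was found in 5 of 34 genes (14.7%), against 1126 of the 9420 tested genes. The 5 were 2 of 9 that fell, 2 of 8 that rose, 0 of 15 that did not pass, and the untested Mlxipl. TCACNCCAC, a form of the sterol regulatory element searched on both strands, was found in 2 of 34 genes (5.88%), against 1.42% of the tested genes. These 2 were Pcyt1a, 1 of 15 that did not pass, and the untested Mlxipl. TCACNCCAC was in no window of the 9 genes that fell and 8 that rose. The called genes Scd1, Scd2, Fads1 and Dgat2 had no window to search. CCAAT boxes on opposite strands can overlap. These matches are descriptions of letters in short windows and carry no test.

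In the supply of acetyl-CoA, citrate and NADPH 3 of 4 genes fell and none rose, against 16.3% lower and 9.56% higher over all tested genes. Without ad libitum replicate 3, 2 of the 4 fell. Acss2 makes acetyl-CoA from acetate in cytosol and nucleus. Its FPKM was 10.9, 10.8, 10.5 and 10.7 in the fasted libraries, against 14.6, 15.7, 14.1 and 13.0 in the ad libitum libraries. Every fasted value was below every ad libitum value, and the level fell by 25.2% (log2 change -0.38 ± 0.058 SE, adjusted p = 0.00109). Part of its exons, 9.12% of the bases in GENCODE M21, overlaps genes on the opposite strand, and whether the counting used strand is not given. Me1, the cytosolic malic enzyme that makes NADPH, had 11.4, 10.2, 11.3 and 10.6 FPKM in fasted cortex, against 13.8, 14.1, 14.2 and 14.03 FPKM in ad libitum cortex. The groups were apart and the level fell by 22.2% (log2 change -0.34 ± 0.05 SE, adjusted p = 0.00103). Of the 50-base words in its longest transcript, 26.5% also occur in transcripts of Gm7049 and Gm7329. How far this sharing affects the FPKM of Me1 was not tested.

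Slc25a1, the mitochondrial citrate carrier, had 12.17, 11.96, 11.03 and 11.2 FPKM in fasted libraries, against 13.4, 13.4, 13.4 and 12.2 FPKM in ad libitum libraries. The lowest ad libitum library lay just above the highest fasted library, and the level fell by 11.6% (adjusted p = 0.0444). This call was lost on leaving out any of 6 of the 8 libraries, with an adjusted p of 0.114 without ad libitum replicate 3. It was also lost without a filter (adjusted p = 0.0571), after each of the 3 equal-sum scalings (0.0569 to 0.806) and with a term for odd and even replicate numbers (0.054). Acly, the ATP citrate lyase that makes cytosolic acetyl-CoA from citrate, had 24.6, 24.2, 24.8 and 24.1 FPKM in fasted cortex, against 25.9, 28.2, 25.2 and 26.6 FPKM in ad libitum cortex. All fasted values were below all ad libitum values, but the log2 change of -0.11 did not pass (adjusted p = 0.118).

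Neither of the 2 tested genes of chain synthesis passed the test. Fasn, the fatty acid synthase, had 18.9, 19.9, 17.7 and 18.5 FPKM in fasted cortex, against 18.7, 20.4, 18.2 and 19.6 FPKM in ad libitum cortex. The groups overlapped, and the log2 change was -0.037 with a 95% confidence interval of -0.16 to 0.085 (adjusted p = 0.657). Acaca, the acetyl-CoA carboxylase that makes malonyl-CoA, had 7.62, 7.88, 7.69 and 7.81 FPKM in fasted cortex, against 7.61, 8.41, 8.12 and 8.8 FPKM in ad libitum cortex. Here too the groups overlapped (log2 change -0.076, 95% confidence interval -0.2 to 0.043, adjusted p = 0.328). Of the 50-base words in the longest Acaca transcript, 52.6% are shared with Gm5182. Acacb, the carboxylase tied to the control of mitochondrial fatty acid oxidation, was below the filter, with 0.553, 0.558, 0.636 and 0.621 FPKM in fasted cortex, against 0.316, 0.371, 0.317 and 0.296 FPKM in ad libitum cortex. Every fasted value was above every ad libitum value, and its mean was 82.2% higher. In the fit without a filter its log2 change was 0.26 (adjusted p = 0.00405), on a scale that understates changes at such low levels.

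Among the 6 elongases, 2 fell, 1 rose and 3 did not pass. Elovl5 lengthens polyunsaturated chains. It had 15.9, 13.8, 14.8 and 14.4 FPKM in fasted libraries, against 21.5, 19.0, 19.6 and 19.9 FPKM in ad libitum libraries. The groups were far apart, the level fell by 26.3% (log2 change -0.42 ± 0.058 SE, adjusted p = 0.000718), and of the 12 calls of lower genes this one alone passed in every alternative run. Elovl6, which lengthens saturated and monounsaturated chains such as palmitate, had 7.01, 6.21, 7.71 and 8.01 FPKM in fasted cortex, against 8.53, 8.98, 10.3 and 9.53 FPKM in ad libitum cortex. It fell by 22.4% with no overlap between groups (adjusted p = 0.0114). Elovl4, which makes very long chains and is highly expressed in retina and neurons, had 23.1, 20.4, 23.9 and 22.7 FPKM in fasted cortex, against 19.7, 19.0, 20.0 and 18.7 FPKM in ad libitum cortex. It rose by 16.4% (log2 change 0.21 ± 0.056 SE, adjusted p = 0.0199). That call was lost without fasted replicate 1, fasted replicate 3 or ad libitum replicate 2, at adjusted p values of 0.0511, 0.0616 and 0.0529. Elovl1, Elovl2 and Elovl7 had log2 changes of -0.068, -0.074 and -0.093, with adjusted p of 0.586, 0.51 and 0.4.

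Desaturation held the most abundant enzymes, and 4 of its 6 genes fell. Scd1 and Scd2, neighbours on chromosome 19 at 44394455 to 44407879 and 44293674 to 44306864 (GRCm38), place the double bond of oleate. Scd2 had 166, 160, 165 and 146 FPKM in fasted libraries, against 190, 196, 190 and 178 FPKM in ad libitum libraries. No values overlapped, and it fell by 15.4% (log2 change -0.24 ± 0.06 SE, adjusted p = 0.014). Scd1 had 31.9, 29.3, 29.7 and 26.9 FPKM in fasted libraries, against 36.4, 36.4, 36.5 and 32.7 FPKM in ad libitum libraries. Its groups were also apart, and it fell by 17.0% (adjusted p = 0.0103). The share of 50-base words each gene has in common with other Scd genes and a few further loci was 4.66% for Scd1 and 4.01% for Scd2.

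Fads1 and Fads2 make arachidonate and docosahexaenoate precursors from dietary polyunsaturated chains, and lie in one cluster with Fads3 between 10041569 and 10196877 on chromosome 19. Fads1 had 43.5, 40.2, 41.4 and 38.7 FPKM in fasted cortex, against 54.8, 49.4, 48.1 and 43.8 FPKM in ad libitum cortex. The lowest ad libitum library was close to the highest fasted one, and Fads1 fell by 16.5% (adjusted p = 0.0209). Leaving out fasted replicate 2 or 4, or ad libitum replicate 1 or 2, moved this adjusted p just over the threshold, to 0.0511 at the least and 0.0548 at the most. Fads2 had 53.9, 48.6, 49.1 and 48.3 FPKM in fasted cortex, against 62.5, 60.6, 57.4 and 56.0 FPKM in ad libitum cortex. All fasted libraries were lower, and Fads2 fell by 15.4% (adjusted p = 0.0112). Fads3, with a log2 change of -0.11 (adjusted p = 0.246), and Fads6, with -0.081 (adjusted p = 0.661), did not pass and had overlapping groups. Summed over the 6 genes, desaturase expression was 269 to 306 FPKM in fasted and 322 to 353 FPKM in ad libitum libraries.

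**Figure D2:**
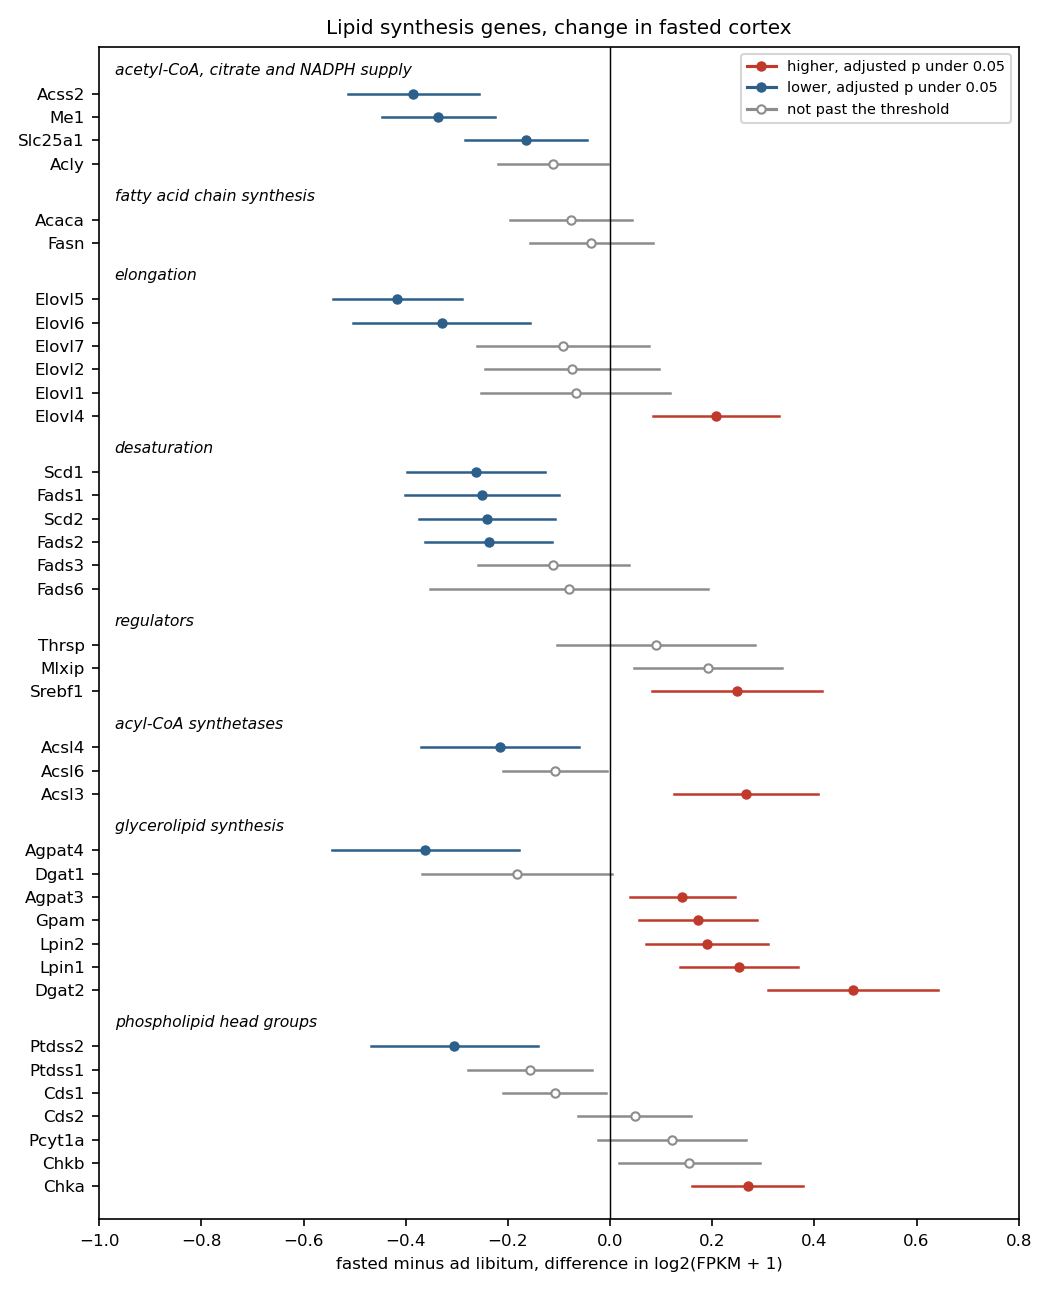
Fasted minus ad libitum difference in log2(FPKM + 1) for the 38 tested genes, grouped by role, with 95% confidence intervals. Filled blue and red points passed an adjusted p of 0.05 as lower and higher genes; all 4 called desaturases lie left of 0, and 5 of 7 glycerolipid genes lie right of it.

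Of the regulators, Srebf1 encodes SREBP1, the transcription factor that drives fatty acid synthesis genes and is itself regulated by cleavage. Srebf1 had 5.84, 6.46, 5.9 and 4.87 FPKM in fasted cortex, against 4.45, 5.06, 4.66 and 4.54 FPKM in ad libitum cortex. One fasted library lay inside the ad libitum range, and the gene rose by 23.2% (log2 change 0.25 ± 0.076 SE, adjusted p = 0.0327). Its call was lost on leaving out any of 5 libraries (fasted replicate 1, 2 or 3, ad libitum replicate 1 or 3), with an adjusted p of 0.0751 without ad libitum replicate 3. Mlxip, which encodes the glucose-sensing factor MondoA, had 4.85 to 5.52 FPKM in fasted and 3.99 to 4.88 FPKM in ad libitum cortex. It did not pass (log2 change 0.19, adjusted p = 0.0538), but passed in 7 alternative runs. Among these were median-ratio scaling (adjusted p = 0.0422), quantile normalization (0.0401) and the replicate number as a block (0.0353). In the other runs that tested Mlxip its adjusted p reached up to 0.141. Thrsp, a lipogenic protein of liver and fat, had a log2 change of 0.09 (adjusted p = 0.483). Mlxipl, which encodes the carbohydrate-responsive factor ChREBP, stayed under the filter at 0.311 to 0.682 FPKM in fasted and 0.603 to 0.783 FPKM in ad libitum cortex.

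Of the 3 acyl-CoA synthetases 1 rose, 1 fell and 1 did not pass. Acsl3, which is found on lipid droplets and endoplasmic reticulum, had 54.7, 48.1, 59.8 and 52.7 FPKM in fasted libraries, against 43.4, 44.2, 44.6 and 45.7 FPKM in ad libitum libraries. All fasted libraries were higher, and Acsl3 rose by 21.1% (log2 change 0.27 ± 0.064 SE, adjusted p = 0.0118), a call that passed in every alternative run. Acsl4, which prefers arachidonate, had 16.1, 14.6, 17.5 and 17.2 FPKM in fasted cortex, against 17.3, 18.6, 20.1 and 20.7 FPKM in ad libitum cortex. The groups overlapped slightly and it fell by 14.6% (adjusted p = 0.0428). This call was lost without any of 5 libraries (adjusted p = 0.117 without ad libitum replicate 3), after median-ratio scaling (0.0923), quantile normalization (0.101) and each of the 3 equal-sum scalings (0.107 to 0.58), and without a filter (0.068). Acsl4 lies on the X chromosome, and with a term for odd and even replicate numbers, which follow the Y-linked transcripts, its adjusted p was 0.0547. Acsl6, a brain synthetase for docosahexaenoate, had 44.4 to 46.6 FPKM in fasted and 47.4 to 50.5 FPKM in ad libitum cortex, without overlap, but did not pass (adjusted p = 0.112).

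In glycerolipid synthesis 5 of 7 genes rose and 1 fell. Dgat2, which makes triacylglycerol from diacylglycerol, had 23.6, 22.6, 23.7 and 19.8 FPKM in fasted libraries, against 16.3, 17.3, 15.9 and 13.9 FPKM in ad libitum libraries. The lowest fasted library lay above the highest ad libitum library, and Dgat2 rose by 41.4% (log2 change 0.47 ± 0.076 SE, adjusted p = 0.00144). Dgat1, the unrelated enzyme for the same step, had 3.47 to 3.94 FPKM in fasted and 3.8 to 5.37 FPKM in ad libitum cortex and did not pass (log2 change -0.18, adjusted p = 0.136). Lpin1, a lipin that turns phosphatidate into diacylglycerol, had 4.58, 4.43, 4.67 and 4.52 FPKM in fasted cortex, against 3.54, 3.69, 3.72 and 3.69 FPKM in ad libitum cortex. Its groups were narrow and well apart, and it rose by 24.3% (adjusted p = 0.0057). Lpin2, a second lipin, had 12.4, 12.2, 13.1 and 11.9 FPKM in fasted cortex, against 10.1, 11.1, 10.4 and 11.3 FPKM in ad libitum cortex. It rose by 15.4% without overlap (adjusted p = 0.0248).

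Gpam, the mitochondrial glycerol phosphate acyltransferase, had 10.9, 11.4, 11.7 and 11.0 FPKM in fasted cortex, against 9.59, 10.3, 9.31 and 10.3 FPKM in ad libitum cortex. It rose (log2 change 0.17 ± 0.053 SE), with all fasted libraries higher (adjusted p = 0.0325). Agpat3, an acyltransferase for lysophosphatidate, had 45.2, 43.0, 43.1 and 44.2 FPKM in fasted cortex, against 40.8, 40.7, 38.2 and 39.1 FPKM in ad libitum cortex. It rose by 10.5%, again without overlap (adjusted p = 0.0467). Agpat4, a second acyltransferase of this family, went the other way, with 13.0, 12.1, 13.0 and 9.89 FPKM in fasted cortex, against 14.9, 16.6, 16.6 and 14.6 FPKM in ad libitum cortex. It fell by 23.3%, with all fasted libraries lower (log2 change -0.36 ± 0.083 SE, adjusted p = 0.00949). Without ad libitum replicate 3, 2 of the 5 calls of higher genes in this group were left. Lpin2, Gpam and Agpat3 then had adjusted p of 0.0767, 0.104 and 0.141. Lpin2 lost its call without any of 4 libraries, Gpam without any of 5 and Agpat3 without any of the 8. Agpat3 also lost it without a filter (adjusted p = 0.0515) and with a term for odd and even replicate numbers (0.0572).

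For the phospholipid head groups, 1 of 7 genes rose and 1 fell. Chka, the choline kinase that starts phosphatidylcholine synthesis, had 17.3, 16.3, 17.0 and 16.1 FPKM in fasted libraries, against 14.01, 14.13, 13.62 and 13.0 FPKM in ad libitum libraries. The groups were apart, and Chka rose by 22.0% (log2 change 0.27 ± 0.05 SE, adjusted p = 0.00302). Chkb, the related kinase, had a log2 change of 0.16 (adjusted p = 0.0925), and 43.8% of its 50-base words are shared with other genes. Pcyt1a, which encodes the regulated step of phosphatidylcholine synthesis, had a log2 change of 0.12 (adjusted p = 0.201). Ptdss2, which makes phosphatidylserine from phosphatidylethanolamine, had 10.02, 9.87, 9.34 and 9.42 FPKM in fasted cortex, against 11.8, 14.3, 12.1 and 10.7 FPKM in ad libitum cortex. It fell by 21.0%, with no overlap (adjusted p = 0.0123). Ptdss1, which makes it from phosphatidylcholine, had a log2 change of -0.16 and did not pass (adjusted p = 0.0565). It passed in 3 alternative runs, among them the replicate number as a block (adjusted p = 0.0357), and reached up to 0.848 in the others. Cds1 and Cds2, which make CDP-diacylglycerol for phosphatidylinositol and cardiolipin, had log2 changes of -0.11 and 0.048 (adjusted p = 0.105 and 0.51); Cds1 did not overlap between groups.

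**Figure D3:**
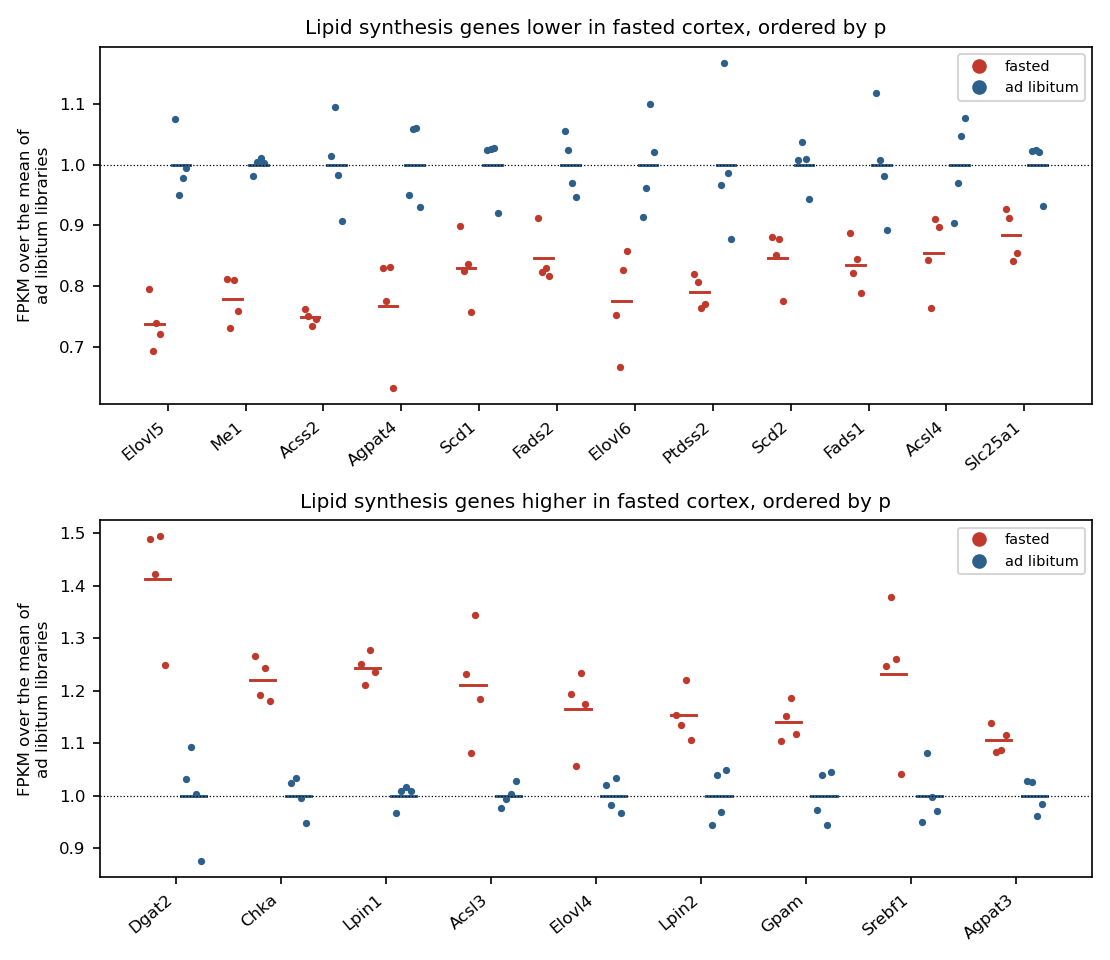
FPKM of each called gene in every library, divided by its mean in the ad libitum libraries, for the 12 lower genes above and the 9 higher genes below; red points are fasted, blue points ad libitum, and bars are means. Groups overlap only for Acsl4 among the lower genes and Srebf1 among the higher genes.

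Leaving out each library in turn, 9 of the 12 calls of lower genes (Acss2, Me1, Elovl5, Elovl6, Scd1, Scd2, Fads2, Agpat4 and Ptdss2) and 4 of the 9 calls of higher genes (Acsl3, Lpin1, Dgat2 and Chka) held in all 8 fits. Counted by overlap alone, 14 of the 38 genes had every fasted library below every ad libitum library, and 8 had every fasted library above, against 16.5% and 11.1% of all tested genes (27.6% in either direction). These counts too are descriptions of a list chosen with earlier results known.

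Related genes, with changes in opposite directions or in the same one, were also compared as ratios within each library, which do not depend on the scaling of a library. The 11 pairs were chosen after the values had been seen, so the ratios are descriptions. Elovl4 over Elovl5 was 1.45, 1.47, 1.62 and 1.57 in fasted libraries, against 0.916, 0.999, 1.02 and 0.94 in ad libitum libraries. Dgat2 over Dgat1 was 5.28 to 6.5 in fasted and 3.23 to 3.83 in ad libitum libraries. Acsl3 over Acsl4 averaged 3.29 ± 0.163 in fasted and 2.33 ± 0.14 in ad libitum libraries, and Agpat3 over Agpat4 averaged 3.7 ± 0.526 in fasted and 2.54 ± 0.204 in ad libitum libraries (SD, n = 4 each). In these 4 pairs, in Elovl4 over Elovl6 and in Srebf1 over Srebf2 the groups did not overlap. For Elovl4 over Elovl5, Elovl4 over Elovl6 and Agpat3 over Agpat4 this follows from single genes already apart in opposite directions. In Ptdss1 over Ptdss2, Chka over Chkb and Me1 over Me2 the groups overlapped. Pairs that moved together kept overlapping ratios: Scd2 over Scd1 averaged 5.42 ± 0.154 in fasted and 5.31 ± 0.112 in ad libitum libraries, and Fads2 over Fads1 averaged 1.22 ± 0.029 in fasted and 1.21 ± 0.059 in ad libitum libraries (SD, n = 4 each).

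**Figure D4:**
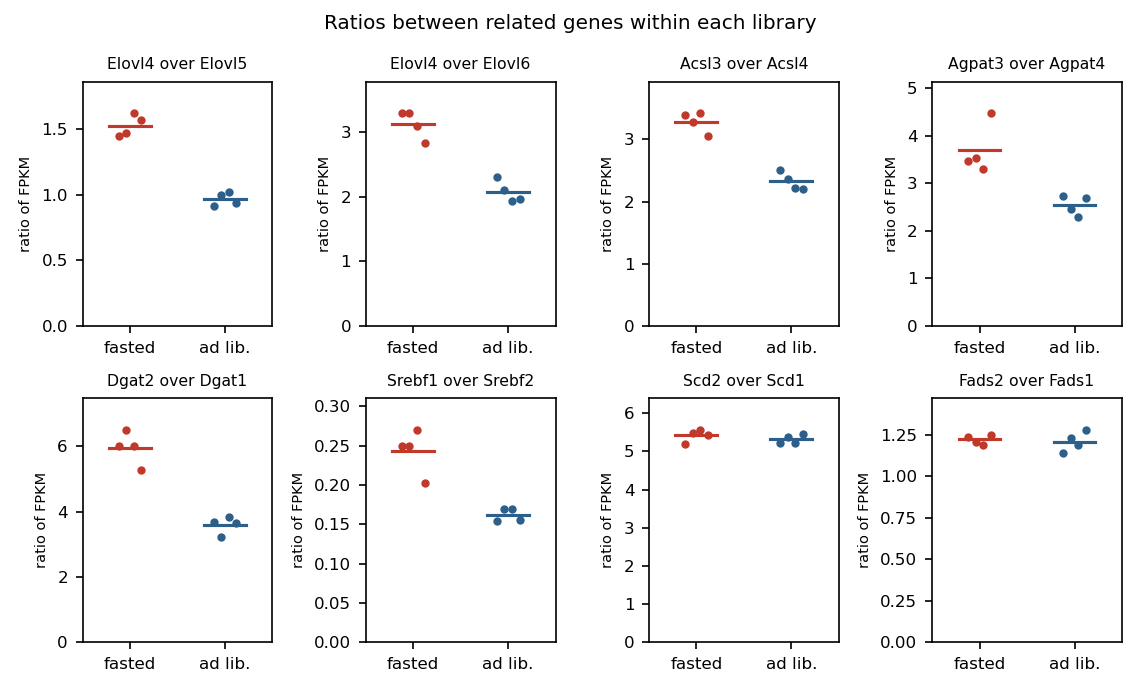
Ratio of FPKM between related genes in each library (vertical axes from 0), with fasted libraries in red left of ad libitum libraries in blue and bars at the means. The first 6 pairs do not overlap between groups, while Scd2 over Scd1 and Fads2 over Fads1 do.

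Other genes of the pathway, in lists of 77 further enzymes and regulators chosen with earlier results of these data known, were read alongside. Of these, 62 were tested: 15 fell and 5 rose, together 32.3%, against 25.8% of all tested genes. In acetyl-CoA and NADPH supply, 3 of 6 fell and none rose: the mitochondrial acetyl-CoA synthetase Acss1 (log2 change -0.33, adjusted p = 0.00566), the NADPH-producing Idh1 (-0.27, adjusted p = 0.00723) and the mitochondrial malic enzyme Me2 (-0.29, adjusted p = 0.00816). Among the other enzymes of elongation and desaturation, 2 of 8 fell and 2 rose. The dehydratase Hacd3 fell (log2 change -0.32, adjusted p = 0.00521), as did the ketoacyl reductase Hsd17b12 (-0.22, adjusted p = 0.0243), while the dehydratase Hacd2 rose (0.2, adjusted p = 0.0163). Hsd17b12 lost its call without any of 5 libraries, and Cyb5r3, the other gene that rose (named after its values were seen), without any of 6 (adjusted p = 0.0657 without ad libitum replicate 3).

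Among 10 further regulators, 3 fell and 1 rose (3 and 2 in the fit with a block for replicate number). Nfya, a subunit of the factor NF-Y that binds CCAAT boxes, had 2.79, 2.78, 2.67 and 3.09 FPKM in fasted libraries, against 4.49, 4.92, 4.36 and 4.59 FPKM in ad libitum libraries. It fell by 38.3% with no overlap (log2 change -0.55 ± 0.061 SE, adjusted p = 0.000247). Srebf2, the sterol-regulated relative of Srebf1, had a mean of 23.8 ± 1.67 FPKM in fasted and 28.9 ± 0.947 FPKM in ad libitum cortex (SD, n = 4 each). It fell, opposite to Srebf1 (log2 change -0.27, adjusted p = 0.00609). The gene that rose, Mbtps1 (named after its values were seen), encodes a protease that activates SREBP proteins and lost its call without any of 6 libraries, with an adjusted p of 0.08 without ad libitum replicate 3. Mid1ip1, a partner of acetyl-CoA carboxylase, fell as well (log2 change -0.26, adjusted p = 0.0174).

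Among the other glycerolipid enzymes 3 of 6 fell and 1 rose. Gpd1, which makes glycerol phosphate, had 32.1, 27.2, 29.8 and 30.7 FPKM in fasted libraries, against 21.3, 21.5, 21.3 and 18.8 FPKM in ad libitum libraries. It rose by 44.4% with no overlap (log2 change 0.51 ± 0.063 SE, adjusted p = 0.00037). Agpat1, a major acyltransferase for lysophosphatidate, had 41.7, 37.2, 34.3 and 35.4 FPKM in fasted libraries, against 56.2, 52.0, 55.0 and 49.0 FPKM in ad libitum libraries. It fell by 30.0% with no overlap (log2 change -0.5 ± 0.069 SE, adjusted p = 0.000644). Lclat1, an acyltransferase of cardiolipin and phosphatidylinositol, fell too (log2 change -0.26, adjusted p = 0.00622), and Agpat5 was the third gene to fall (named after its values were seen).

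Of 13 further phospholipid enzymes, 2 fell and 1 rose, and 5 fell and 1 rose with the replicate number as a block. Cept1, the choline and ethanolamine phosphotransferase, fell (log2 change -0.37, adjusted p = 0.00437), as did the cardiolipin synthase Crls1 (-0.19, adjusted p = 0.0427), while Tamm41, the mitochondrial CDP-diacylglycerol synthase, rose (0.23, adjusted p = 0.0423). Crls1 and Tamm41 each lost the call without any of 6 libraries, with adjusted p of 0.109 and 0.0958 without ad libitum replicate 3. Of 7 acyl chain remodelling enzymes 2 fell, or 4 with the block: Lpcat2 (log2 change -0.34, adjusted p = 0.0223) and Lpgat1 (-0.22, adjusted p = 0.0247), which lost their calls without any of 4 and any of 3 libraries. Without ad libitum replicate 3 the adjusted p of Lpgat1 was 0.0781. Lpgat1 also lost its call after median-ratio scaling (0.0635), quantile normalization (0.077) and each equal-sum scaling (0.0714 to 0.56). Neither the 7 genes of fatty acid activation and uptake nor the 5 of mitochondrial fatty acid synthesis held a call in limma, and 1 gene in each had an unadjusted p under 0.05; with the block 1 gene of the first list fell.

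Cell type markers were read beside these results, since fewer cells of a type and less RNA per cell cannot be told apart in a homogenate. The summed level of 10 markers of mature oligodendrocytes, cells rich in lipid synthesis, was 1754 to 2094 FPKM in fasted and 1616 to 2017 FPKM in ad libitum libraries; 2 of the 10 rose and 1 fell. The 8 astrocyte markers summed to 761 to 837 FPKM in fasted and 770 to 828 FPKM in ad libitum libraries; 1 rose and 3 fell. The 6 markers listed under oligodendrocyte precursors, not all limited to that stage, summed to 46.5 to 52.6 FPKM in fasted and 57.4 to 61.3 FPKM in ad libitum libraries. The 8 microglia markers summed to 77.1 to 86.9 FPKM in fasted and 87.9 to 119 FPKM in ad libitum libraries. Neither sum overlapped between groups. Of these markers 2 of 6 (Olig1 and Gpr17) and 4 of 8 fell. Mean FPKM in fasted against ad libitum cortex was 22.1 against 28.6 for Olig1 and 11.3 against 14.6 for Gpr17. Log2 changes of the other genes in that list, Pdgfra, Cspg4, Bmp4 and Enpp6, were 0.064, -0.023, -0.1 and 0.059, none of them called. Among 7 excitatory neuron markers 4 fell, among 6 endothelial markers 1 fell, and among 6 inhibitory neuron markers none was called in limma, 1 having an unadjusted p under 0.05. Of 4 tested fibroblast and meninges markers 1 fell. Of all 57 tested markers, 2 of them of erythrocytes, 28.1% fell and 5.26% rose, against 16.3% lower and 9.56% higher over all tested genes. The lower share was 16.7% for endothelial and 57.1% for excitatory neuron markers, in lists of 6 and 7 genes. The 5 choroid plexus markers summed to 1.62 to 3.62 FPKM in fasted and 0.913 to 1.74 FPKM in ad libitum libraries, and none reached the filter. The part of the cell type makeup in the lipid gene values was not tested.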

How the data were processed

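Gene-level FPKM values of 8 RNA-seq libraries were used as the authors deposited them, in 1 table of 24883 rows. Reads were aligned with TopHat to mm10, per the submitters' processing notes. The program and annotation behind the FPKM values, and whether counting used strand, are not stated in the labels or the file. Of a symbol on several rows (282 symbols, none of them described here as a lipid gene), the row with the highest mean was kept.

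Values were set to log2(FPKM + 1). Genes that reached 1 FPKM in 4 or more of the 8 libraries were fitted with limma 3.58.1 in R 4.3.3 (group as the only term, trended and robust moderation). P-values were adjusted by Benjamini-Hochberg over 12377 genes and called under 0.05. A fold change on this scale understates the change of low genes, while percent changes are between mean FPKM. The script was tested on simulated data. Other calculations used Python 3.11.15 and pandas 2.3.3. Marker and pathway lists, and the 40 genes themselves, were chosen with earlier results of these data known. Values in every library are given for called genes of the 40 and for Fasn, Acaca, Acly, Srebf1, Scd1 and Scd2, and of each further list up to 3 called genes with the smallest p are named; Acacb in every library, the ratio pairs and the printed promoters were chosen after the values were seen.

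GEO's labels do not say that replicates came from separate animals, so p-values measure the spread between these libraries. Libraries of the 2 groups with the same replicate number deviated together (correlations of deviations of 0.57, 0.50, 0.38 and 0.52 for numbers 1 to 4), and the data are the source of this pairing. Different numbers that were both odd or both even also gave positive correlations, 0.16 to 0.38. An odd with an even number gave -0.55 to -0.26. Whether the deviations follow the number or the odd and even split was not tested. Libraries with odd numbers held Y-linked transcripts and those with even numbers Xist, except ad libitum replicate 3, which held both. Shared sequence was counted as 50-base words of each gene's longest GENCODE M21 transcript that transcripts of other genes also hold. Alternatives changed the pseudocount (0.1 and 0.5), the filter (none and 5 FPKM), the scaling, the moderation and the model terms, or left out 1 library.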

Additional observations from a re-analysis of the deposited data

Results flagged for a closer look

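Among 114 groups of 4 libraries examined for lipid synthesis genes and further genes of the pathway, 8 held a library far from the other 3, with a gap to its nearest neighbour above Dixon's 95% critical share of the group's range; chance flags about 1 in 20 groups. In fasted cortex, Elovl1 was 10.2 FPKM in replicate 1 against 7.89 to 8.24 FPKM in the others, Fads2 was 53.9 FPKM in replicate 1 against 48.3 to 49.1 FPKM, and Fads6 was 3.24 FPKM in replicate 2 against 2.4 to 2.47 FPKM. In ad libitum cortex, replicate 4 was low for Slc25a1 at 12.2 FPKM (13.4 in each of the others), for Scd1 at 32.7 FPKM (36.4 to 36.5 in the others) and for Gpd1 at 18.9 FPKM (21.3 to 21.5 in the others). Lclat1 was 11.7 FPKM in ad libitum replicate 1 against 10.9 to 11.0 FPKM in the others, and Cept1 was 11.5 FPKM in ad libitum replicate 2 against 9.99 to 10.2 FPKM. The flagged library lay toward the other group for Slc25a1, Scd1 and Fads2 and away from it for Gpd1, Lclat1 and Cept1.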

How the results depend on the processing

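Scaling every library to an equal FPKM sum changed the most. It moved the median log2 change of all genes by 0.109, left 1 lower lipid synthesis gene and 8 higher ones, 2 lower genes of the further pathway lists, and 534 lower and 1585 higher genes in all (74.8% of calls higher, against 37.0%). It turned 9 uncalled changes positive: Acly 0.011, Acaca 0.036, Fasn 0.084, Elovl1 0.046, Elovl2 0.028, Fads3 0.0003, Fads6 0.0084, Acsl6 0.017 and Cds1 0.013. In these sums 4 microRNA rows exceed 5000 FPKM, each in 1 library (up to 40330 FPKM); without those rows, a setting chosen after seeing the data, 10 lipid synthesis genes were lower and 9 higher. A sum over tested genes, also chosen later, gave the same counts. Median-ratio scaling gave 47.5% and quantile normalization 48.4% higher calls among all genes (1792 higher under the second), with 11 lower and 10 higher lipid genes under each. Without a filter 3 genes of the further lists were higher. With the replicate number as a block, 13 lipid genes were lower and 10 higher, the further lists held 22 lower and 6 higher, and all genes 2733 lower and 1773 higher; Mlxip and Ptdss1 were the only lipid genes whose call changed. Leaving out 1 library gave 9 to 13 lower and 4 to 9 higher lipid genes, 12 to 21 lower and 2 to 4 higher genes of the further lists, and 1406 to 2572 lower and 841 to 1196 higher genes in all. Among these 8 fits the log2 change of Fads6 ranged between -0.18 and 0.03 (positive without ad libitum replicate 3) and that of Thrsp between -0.0027 and 0.14 (negative without ad libitum replicate 4); neither was called. The causes were not tested.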
